A study of Mus musculus with 6 samples.

Results

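The 10 activity-induced genes described here were measured in the hippocampus of PHF2 t/g and wild-type (WT) mice: Arc, Npas4, Nptx2, Ptgs2, Plk2, Inhba, Sik1, Gadd45b, Ier2 and Btg2. They were chosen by symbol, as activity-induced genes outside the Egr, Fos/Jun and Nr4a families, with earlier results of these data known. All 10 members were found among 23282 gene rows. All 10 passed the low-count filter, as did 12831 genes in all. The study compared 3 libraries labelled PHF2 t/g with 3 labelled WT, all from C57BL/6 mice aged 16 weeks. PHF2 is a demethylase of histone H3 lysine 9, and the question is which hippocampal transcripts differ with this genotype. The labels do not give the construct, the promoter that drives it or the number of lines. The labels name the library kit as QuantSeq, in which reads come from the 3′ ends of transcripts, but the catalogue number beside it may be that of a kit that reads whole transcripts, so the kit is not settled. The labels do not say whether each library is a separate animal, so the p-values speak of the spread among libraries, which may be technical.

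Synaptic activity in neurons raises calcium and activates kinase pathways, which switch on transcription of a set of genes within minutes through the factors CREB, SRF and MEF2. Some of these genes encode transcription factors, and others act directly as effectors at the synapse, in signalling or in RNA turnover. In the hippocampus such genes are widely used as a readout of recent neuronal activity, and several of them are needed for lasting synaptic change and memory.

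Of the 10 genes, Arc and Ier2 fell in PHF2 t/g, none rose and 8 did not pass the test (edgeR's quasi-likelihood test, adjusted p under 0.05 over all tested genes). Of all tested genes, 2.27% passed, 1.49% as lower in PHF2 t/g. Ier2 was 1.78-fold lower and Arc 1.35-fold lower, and these were also the only members of the 10 whose PHF2 t/g and WT libraries did not overlap; among all tested genes 10.4% did not overlap in this direction, 10.1% in the other and 20.6% in either. Of the 10, 9 had a fitted change below 0 and Plk2 lay above it. Their median log2 fold change was −0.16, against 0.02 for all tested genes, of which 46.1% lay below 0. With the libraries scaled by total count alone, the median of all tested genes moved to 0.12, that of the 10 members to −0.06, 6 members lay below 0 and Ier2 alone passed. The count of 2 became 0 without PHF2 t/g replicate 1 or replicate 2, and 1 (Ier2) without PHF2 t/g replicate 3, WT replicate 2 or WT replicate 3.

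Library totals ranged from 6053363 to 8612720 counts in PHF2 t/g and from 5512171 to 8844718 in WT. The row Rn45s, a ribosomal RNA precursor, took 7.05% to 7.61% of the counts across PHF2 t/g and 8.20% to 9.89% across WT, without overlap; with the rows Rn45s, Lrrc17 and Akap5 left out, Arc no longer passed (edgeR adjusted p = 0.051) and Ier2 did. Levels are CPM scaled by TMM. Phf2 itself averaged 38.7 ± 3.96 CPM across PHF2 t/g and 37.7 ± 1.92 CPM across WT (SD, n = 3 each; edgeR adjusted p = 0.929). WT replicate 2 stood apart from the other libraries on a multidimensional scaling plot, at 1.08 on its leading axis against −0.533 to 0.152. Hippocampal markers were read in every library, with summed levels of 92.0 to 112 CPM across PHF2 t/g and 88.7 to 105 CPM in WT for 7 dentate granule cell genes, and of 513 to 581 CPM and 594 to 626 CPM for 5 CA1 genes. Of these 5 CA1 genes, 2 had a log2 fold change above 0, and only Wfs1 passed the test, as higher (0.49, edgeR adjusted p = 0.0191). Its call was lost without any 1 PHF2 t/g library or WT replicate 3 (edgeR adjusted p up to 0.185). The summed level of 9 interneuron markers was 1286 to 1306 CPM across PHF2 t/g and 1348 to 1394 CPM across WT, with Gad2 higher and Sst lower past the test. The call of Sst was lost without any 1 PHF2 t/g library or WT replicate 3 (edgeR adjusted p up to 0.0999). It was also lost with scaling by total count alone (0.0762). That of Gad2 was lost without PHF2 t/g replicate 1 (0.0753).

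Summed markers of other tissue differed as well, in both directions. The summed level of 9 striatum markers was 812 to 934 CPM across PHF2 t/g and 626 to 718 CPM across WT, and that of 10 hypothalamus markers was 88.9 to 97.8 CPM and 50.3 to 54.4 CPM. For 8 leptomeningeal markers it was 156 to 174 CPM across PHF2 t/g and 77.2 to 104 CPM across WT, and for 10 endothelial and mural markers 144 to 149 CPM and 105 to 128 CPM. Of the tested markers 3 of 8, 3 of 5 (Avp, Oxt and Trh), 1 of 7 and 4 of 10 in these 4 lists rose past the test and none fell past it. In the same order, 1, 2, 1 and 3 tested markers had a log2 fold change below 0. Of the 10 hypothalamus markers, 5 were under the low-count filter. No marker was at 0 in all libraries. Without PHF2 t/g replicate 1 the calls left were 2, 2, 1 and 0, with Rgs9, Trh and all 4 endothelial and mural genes lost (edgeR adjusted p up to 0.268). Leaving out another library kept 2 or 3, 3, 1 and 1 to 3. The summed level of 6 thalamus and habenula markers was instead lower, at 161.3 to 175.9 CPM across PHF2 t/g and 176.4 to 208.5 CPM across WT. Of these 6, 4 had a log2 fold change below 0 and none passed the test. For 5 neocortex markers the sums overlapped, at 240 to 272 CPM and 244 to 307 CPM, with 4 below 0 and none past the test. Choroid plexus RNA was high in 1 library: 7 markers summed to 561 CPM in PHF2 t/g replicate 1, 162 and 159 CPM in the other PHF2 t/g libraries and 140 to 157 CPM in WT. Ttr, the leading gene of that list, was at 292 CPM in that library, against 1.29 to 4.46 CPM in the other 5. Neither Arc nor Ier2 passed without PHF2 t/g replicate 1, nor without PHF2 t/g replicate 2. Over all tested genes the count of 291 past the test became 49, 106 and 116 without PHF2 t/g replicate 1, 2 and 3. The part of these marker shifts in the results on the 10 members was not tested. In bulk tissue, fewer cells of a type and less RNA per cell cannot be told apart.

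Promoter sequence was at hand for 6 of the 10 genes (RefSeq, GRCm38.p6): Npas4, Ptgs2, Plk2, Inhba, Gadd45b and Btg2. The window searched ran from 250 bases before to 50 bases after the transcript start used in that table. For Ptgs2, Plk2, Gadd45b and Btg2 this is the outer end of the RefSeq gene. For Npas4 and Inhba it lies inside the gene, 13468 and 7595 bases downstream of that end, at the start of a GENCODE M21 transcript. That transcript is a coding one for Inhba and one not annotated as coding for Npas4. How far the nearest coding start of Npas4 lies from it was not measured. The cyclic AMP response element TGACGTCA, the site that CREB binds, was present in 2 of the 6, Plk2 and Btg2. It was present in 9.72% of 72 promoters of the other activity-induced genes tested and in 3.02% of the promoters of all tested genes. Its shorter core TGACG, searched on both strands and contained in the longer site, was in 4 of the 6 (Npas4, Ptgs2, Plk2 and Btg2), against 54.2% and 30.6% in those sets. The CArG box of SRF was in none of the 6, in 5.56% of the promoters of the other activity-induced genes and in 1.36% of those of all tested genes. The AP-1 site TGANTCA was also in none, against 4.17% and 4.85%. The site GCGNGGGCG of the EGR factors was in Gadd45b and Btg2, against 16.7% and 10.7%. These sites were searched on both strands. The letters TATAAA, searched on the strand of the gene, were in Inhba and Gadd45b, against 12.5% and 4.32%. A match is a run of letters and not a measured binding site. No promoter was at hand for Arc and Ier2, the 2 members past the test, so these shares do not cover them.

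Of these promoters 3 are shown, chosen after the values were seen: Btg2, the member whose levels ran closest to those of Arc, Plk2, the single member above 0, and Npas4, a transcription factor made mainly on activity. Each is the 250 bases before the transcript start just described, which for Npas4 lies within the gene, 5′ to 3′ on its own strand. Capitals mark TGACGTCA, its core TGACG on either strand, and the EGR site.
Btg2 (chr1:134079156-134079405, minus strand): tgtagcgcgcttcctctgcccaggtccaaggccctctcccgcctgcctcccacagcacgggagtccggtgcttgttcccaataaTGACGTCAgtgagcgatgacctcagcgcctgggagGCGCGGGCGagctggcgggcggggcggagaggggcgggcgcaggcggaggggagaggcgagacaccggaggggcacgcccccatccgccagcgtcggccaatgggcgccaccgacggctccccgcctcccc
Plk2 (chr13:110394794-110395043, plus strand): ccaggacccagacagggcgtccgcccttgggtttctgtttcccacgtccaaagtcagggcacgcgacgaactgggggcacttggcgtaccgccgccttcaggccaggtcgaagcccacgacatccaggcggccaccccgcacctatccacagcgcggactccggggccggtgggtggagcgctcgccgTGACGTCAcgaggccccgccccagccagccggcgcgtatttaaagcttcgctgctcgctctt
Npas4 (chr19:4989972-4990221, minus strand): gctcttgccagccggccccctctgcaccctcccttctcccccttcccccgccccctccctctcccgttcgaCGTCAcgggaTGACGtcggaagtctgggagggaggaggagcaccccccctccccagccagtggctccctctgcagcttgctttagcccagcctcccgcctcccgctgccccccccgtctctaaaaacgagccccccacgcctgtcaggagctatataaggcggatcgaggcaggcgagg
In Btg2 the full site began 166 bases before the start and in Plk2 62 bases before it. In Npas4 a pair of cores lay 179 and 169 bases before the start, on opposite strands. The promoters of Btg2 and Plk2 thus share the full site. Their fitted changes were −0.29 and 0.15, neither past the test, and that of Plk2 was −0.02 without WT replicate 2. A link between the site and the levels was not tested.

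Arc (chromosome 15, 74669081 to 74672570, minus strand, 3 exons) encodes a synaptic protein whose mRNA is carried into dendrites, where the protein promotes removal of AMPA receptors. Arc was read at 33.1, 34.8 and 37.8 CPM in the libraries of PHF2 t/g, against 42.3, 50.1 and 49.6 CPM in the WT libraries. Every PHF2 t/g library lay below every WT library, and the nearest pair were PHF2 t/g replicate 3 and WT replicate 1. Its log2 fold change was −0.43 (SE 0.112, 95% interval −0.67 to −0.20; edgeR adjusted p = 0.0496), just inside the threshold of 0.05. Leaving out 1 library ended this call in 5 of 6 cases, with an edgeR adjusted p of 0.301 without PHF2 t/g replicate 1, 0.191 without replicate 2, 0.0928 without replicate 3, 0.0514 without WT replicate 2 and 0.12 without WT replicate 3. The call also ended with scaling by total count alone (edgeR adjusted p = 0.13). The log2 fold change stayed between −0.51 and −0.33 under all alternatives run.

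Nptx2 (chromosome 5, 144545887 to 144557478, plus strand, 5 exons) encodes neuronal pentraxin 2, a secreted protein that clusters AMPA receptors at excitatory synapses, mainly those onto parvalbumin interneurons. It had levels of 38.6, 39.1 and 47.3 CPM in PHF2 t/g, against 57.9, 20.2 and 49.2 CPM in WT. WT replicate 2, the deepest library, was the lowest of the 6 with 172 counts, and the other WT libraries lay above all PHF2 t/g libraries. Its log2 fold change was −0.01 with all libraries (95% interval −1.19 to 1.17; edgeR adjusted p = 0.998). Without WT replicate 2 it was −0.36, which did not pass either (edgeR adjusted p = 0.0802).

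Plk2 (chromosome 13, 110395044 to 110400844, plus strand, 14 exons) encodes a polo-like kinase that weakens synapses after prolonged activity. It had the highest level of the 10 genes on the CPM scale, at 112, 101 and 107 CPM in PHF2 t/g, against 110, 74.3 and 107 CPM in WT. WT replicate 2 was again the lowest, and the other 5 libraries lay within 101 to 112 CPM. The log2 fold change was 0.15 (SE 0.131, 95% interval −0.14 to 0.43; edgeR adjusted p = 0.665), and −0.02 without WT replicate 2.

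**Figure D1:**
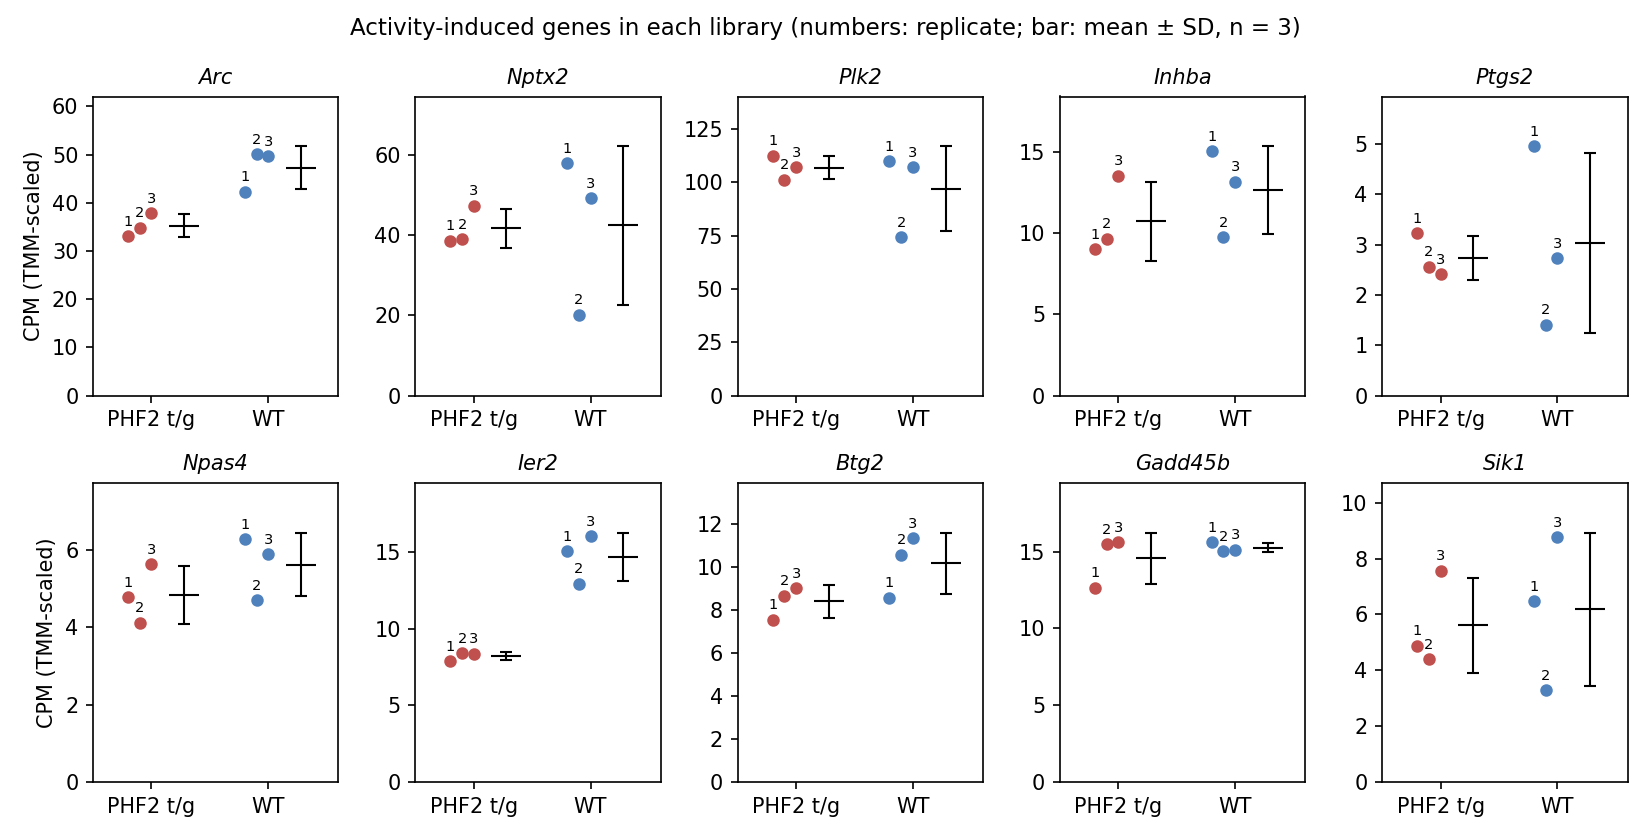
Level of each gene in CPM (vertical axis, from 0) in the 3 PHF2 t/g and 3 WT libraries; numbers give the replicate, and the bar the mean ± SD. For Arc and Ier2 all PHF2 t/g points lie below all WT points, while in Nptx2, Plk2, Ptgs2 and Sik1 WT replicate 2 lies below all other libraries.

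Inhba and Ptgs2 give rise to secreted signals. Inhba (chromosome 13, 16004256 to 16031609, plus strand, 5 exons) encodes the subunit of activin A, a ligand of the TGF-beta family that is protective in neurons. Inhba had levels of 8.99, 9.66 and 13.5 CPM in PHF2 t/g, against 15.0, 9.75 and 13.2 CPM in WT. The groups overlapped, and the log2 fold change of −0.23 did not pass (95% interval −0.65 to 0.19; edgeR adjusted p = 0.646). The gene overlaps a pseudogene and an antisense gene in the GENCODE M21 annotation, and without knowing whether strand was used their reads cannot be told apart. Ptgs2 (chromosome 1, 150100031 to 150108234, plus strand, 10 exons), the inducible cyclooxygenase of prostaglandin synthesis, was the lowest of the 10 genes on the CPM scale, with 12 to 29 counts per library. It had levels of 3.22, 2.56 and 2.41 CPM in PHF2 t/g, against 4.95, 1.41 and 2.72 CPM in WT. The highest and the lowest value were both WT libraries. The 95% interval of its log2 fold change ran from −0.87 to 0.78 (estimate −0.05, edgeR adjusted p = 0.969), so changes within that interval were not excluded.

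Npas4, Ier2 and Btg2 act in the nucleus or on mRNA. Npas4 (chromosome 19, 4984353 to 5003439, minus strand, 8 exons), a bHLH-PAS transcription factor that sets the balance of inhibition onto excitatory neurons, had levels of 4.77, 4.12 and 5.63 CPM in PHF2 t/g, against 6.28, 4.70 and 5.90 CPM in WT. PHF2 t/g replicates 1 and 3 lay among the WT libraries. Its log2 fold change was −0.21 (95% interval −0.72 to 0.31; edgeR adjusted p = 0.752), on 29 to 43 counts per library.

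Ier2 (chromosome 8, 84661331 to 84662852, minus strand, a gene of 1 exon) encodes a small immediate early protein found in the nucleus. It had levels of 7.88, 8.38 and 8.37 CPM in PHF2 t/g, against 15.0, 12.9 and 16.0 CPM in WT. The PHF2 t/g libraries lay close together and the lowest WT library was well above them. Ier2 had 52 to 71 counts per PHF2 t/g library and 79 to 110 per WT library. The log2 fold change was −0.83 (SE 0.169, 95% interval −1.19 to −0.48; edgeR adjusted p = 0.0123), the largest of the 10 in size, and it ranked 102 among 12831 genes by p. Its call was lost without PHF2 t/g replicate 1 (edgeR adjusted p = 0.127) or replicate 2 (0.066), with log2 fold changes of −0.80 and −0.85. It held without each of the other libraries (edgeR adjusted p = 0.00244 to 0.0496) and with scaling by total count alone (0.0301).

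Btg2 (chromosome 1, 134074865 to 134079155, minus strand, 2 exons) encodes an antiproliferative protein that recruits the deadenylase complex to mRNA. It had levels of 7.55, 8.66 and 9.01 CPM in PHF2 t/g, against 8.57, 10.6 and 11.3 CPM in WT. WT replicate 1 lay among the PHF2 t/g libraries and the other 2 WT libraries above them. The log2 fold change was −0.29 (95% interval −0.68 to 0.10; edgeR adjusted p = 0.501).

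Gadd45b and Sik1 are regulators of chromatin and signalling. Gadd45b (chromosome 10, 80930091 to 80932204, plus strand, 4 exons), linked to activity-dependent DNA demethylation in neurons, had levels of 12.7, 15.5 and 15.6 CPM in PHF2 t/g, against 15.6, 15.0 and 15.1 CPM in WT. It was the steadiest gene in WT, with a coefficient of variation of 2.0%, and only PHF2 t/g replicate 1 lay apart. Its log2 fold change was −0.07 (95% interval −0.39 to 0.25; edgeR adjusted p = 0.877). Sik1 (chromosome 17, 31844248 to 31855804, minus strand, 14 exons), a salt-inducible kinase that restrains CREB through its CRTC coactivators, had levels of 4.89, 4.40 and 7.56 CPM in PHF2 t/g, against 6.47, 3.29 and 8.78 CPM in WT. The libraries of both groups were interleaved, and the log2 fold change was −0.12 (95% interval −0.86 to 0.61; edgeR adjusted p = 0.908).

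**Figure D2:**
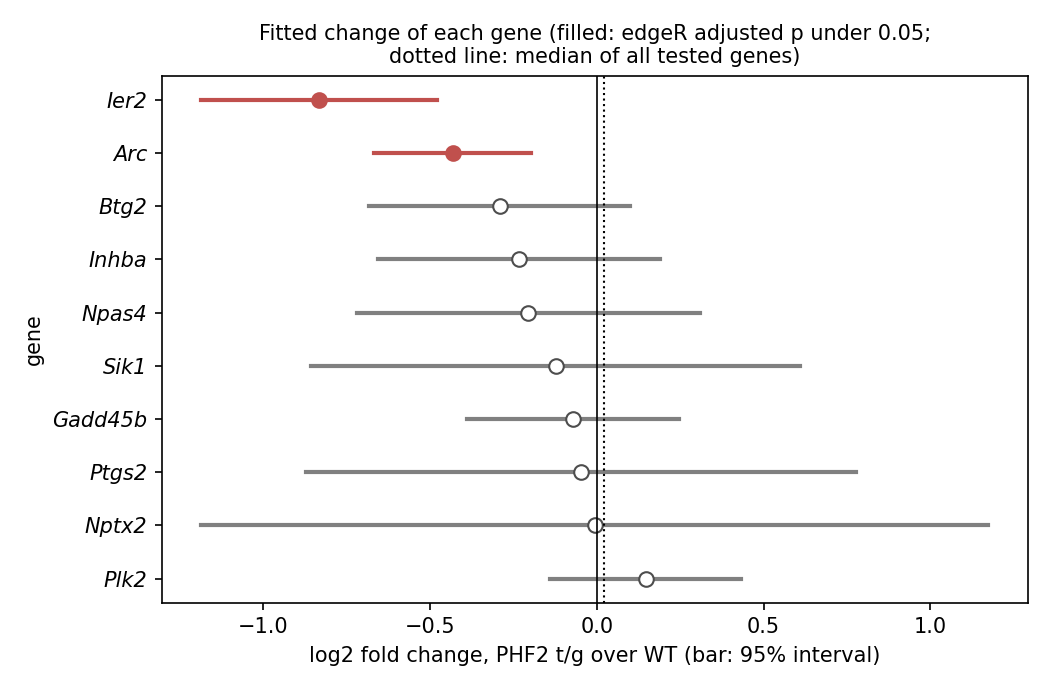
Fitted log2 fold change of PHF2 t/g over WT for each of the 10 genes, with its 95% interval; filled points passed the test, and the dotted line is the median of all tested genes (0.02). The intervals of Ier2 and Arc lie below 0, and those of Nptx2, Ptgs2 and Sik1 are the widest.

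The order of the levels was compared on the CPM scale. That scale fits tags at the 3′ end, counted about once per transcript. Since the kit is not settled, the order after division by the length of the principal transcript is given as well. In PHF2 t/g, Plk2 (mean 107 CPM) came before Nptx2 (41.7) and Arc (35.2), and in WT Plk2 (97.0) came before Arc (47.3) and Nptx2 (42.4). Arc and Nptx2 were separated in PHF2 t/g, where every Nptx2 value was above every Arc value, and overlapped in WT. Gadd45b followed in both groups, at 14.6 and 15.3 CPM. In WT its range overlapped that of Ier2 (14.7 CPM), which came next there, whereas in PHF2 t/g Ier2 was at rank 7 of 10 with 8.21 CPM, behind Inhba and Btg2. Neighbours overlapped in PHF2 t/g from Gadd45b through Inhba and Btg2 to Ier2, and likewise Sik1 and Npas4, and in WT all neighbours from Gadd45b down to Ptgs2 overlapped. Sik1, Npas4 and Ptgs2 were the lowest in both groups. Per kilobase of transcript, Plk2 was again the highest (38.2 CPM per kilobase in PHF2 t/g and 34.7 in WT) and Ptgs2 the lowest (0.613 and 0.680), with Npas4 and Sik1 next to it. On that scale Ier2, whose transcript is short, was at rank 5 in both groups (5.39 and 9.64), so its lower rank in PHF2 t/g holds on the CPM scale alone, and Nptx2 came before Arc in both groups.

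Because ratios between genes of the same library do not depend on how libraries are scaled, the counts of the 10 genes were also set against each other. For each 100 counts of Gadd45b there were 62.3, 54.1 and 53.6 counts of Ier2 in PHF2 t/g, against 96.3, 85.9 and 106 in WT. For each 100 counts of Arc there were 23.8, 24.1 and 22.1 counts of Ier2 in PHF2 t/g, against 35.6, 25.8 and 32.3 in WT. The ratio of Ier2 was lower in every PHF2 t/g library than in every WT library against 7 of the 9 other genes, and overlapped against Ptgs2 and Sik1. The ratio of Arc was lower without overlap against Plk2 and Gadd45b. Of all ratios of a tested gene to 1 of the 10 members, 1.81% were lower without overlap. For each 100 counts of Plk2 there were 29.4, 34.4 and 35.3 counts of Arc in PHF2 t/g, against 38.5, 67.4 and 46.4 in WT. A ratio shows unequal change and not which of its genes moved.

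The libraries of the same group differed most in WT. Of the 10 genes, 8 were lowest of the WT libraries in WT replicate 2, and Arc was highest there; the summed level of the 10 was 202 CPM in it, against 282 and 279 CPM in the other WT libraries and 228 to 254 CPM in PHF2 t/g. On the log2 scale WT replicate 2 lay 0.93 below the WT mean for Nptx2, 0.82 for Ptgs2 and 0.75 for Sik1. Gadd45b (−0.02) and Btg2 (0.07) lay close to it. The root mean square deviation from the own group's mean over the 10 genes was 0.494 in WT replicate 2, against 0.254 over all tested genes at a mean log2 CPM of 2 or above, and 0.133 to 0.215 over the libraries of PHF2 t/g, against 0.144 to 0.16. The 10 include Ptgs2, whose mean log2 CPM of 1.62 is under that limit, and the sets were not matched for level. Other values moved with WT replicate 2 as well: its summed markers of CA2 and CA3 neurons were at 407 CPM, against 505 and 500 CPM in the other WT libraries, and those of oligodendrocytes at 2079 CPM, against 2286 and 2341 CPM; their part in the low values was not tested. Within PHF2 t/g, replicate 3 held the highest value of 7 of the 10 genes, most clearly of Sik1 and Inhba.

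Without WT replicate 2, all 10 members had a fitted change below 0, with a median log2 fold change of −0.38 against 0.01 for all tested genes. Because that library held the lowest WT value of 8 of the 10, leaving it out lowers their fitted changes by itself. The signs and the median of this fit are therefore no separate evidence of a decrease. Ier2 alone passed then (edgeR adjusted p = 0.00244). Arc, Npas4, Nptx2 and Ier2 were lower without overlap against the 2 WT libraries left, as were 16.0% of all tested genes. Inhba had a log2 fold change of −0.41 and Sik1 of −0.48 in that fit, and neither passed (edgeR adjusted p = 0.306 and 0.402).

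**Figure D3:**
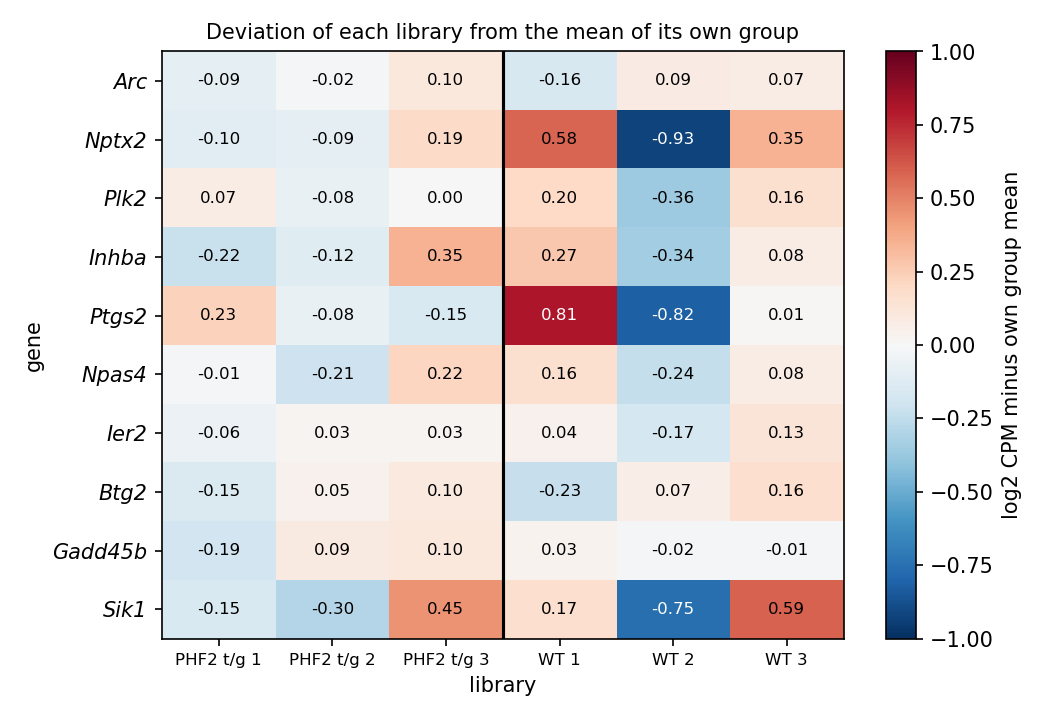
Deviation of each library (columns) from the mean of its own group for each gene (rows), on the log2 CPM scale; red is above and blue below the mean. WT replicate 2 is the bluest column, at −0.93 for Nptx2, and Arc, Btg2 and Gadd45b do not share that drop.

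The pattern of Arc over the 6 libraries was compared with that of 11035 other genes whose mean log2 CPM was 2 or more, by the root mean square distance between log2 CPM values centred on each gene's mean. The nearest were Sncb (beta-synuclein, a presynaptic protein; distance 0.0474), Cdk16 (a cyclin-dependent kinase of neurons; 0.0523) and Zfp30 (a zinc finger gene; 0.0594), against a median distance of 0.281. Sncb had levels of 350, 363 and 380 CPM in PHF2 t/g, against 435, 511 and 473 CPM in WT. Among the 10 members, Btg2 was the nearest to Arc at 0.0999, a distance that 0.997% of the genes compared did not exceed. Gadd45b (0.208), Npas4 (0.235) and Ier2 (0.241) followed, and Nptx2 (0.586) and Ptgs2 (0.605) were the farthest. Since the measure was computed over the libraries of both groups, a near gene shares the difference between the groups as well as the order of the libraries within them.

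The other activity-induced genes were taken from lists, and the 10 members were left out of them. These lists were chosen with earlier results of these data known, so their counts are no independent support for the members. Of all tested genes, 2.27% passed, 1.49% as lower in PHF2 t/g. Of 23 tested transcription factor genes, 7 fell in PHF2 t/g, 0 rose and 16 did not pass, and the median log2 fold change was −0.34, against 0.02 for all tested genes. The smallest p-values were those of Egr4 (log2 fold change −0.89, edgeR adjusted p = 1.01e-05), Junb (−0.90, 2.08e-05), Nr4a2 (−0.67, 1.81e-04) and Egr2 (−1.15, 0.00164). The count was 4 with scaling by total count alone, with 20 of 23 below 0 there and all 23 with TMM, and it was 4 without PHF2 t/g replicate 1 or replicate 2. Of 38 tested effector genes, 7 fell, Tac1 rose and 30 did not pass, with a median of −0.17. Ier5, an immediate early gene related to Ier2, was at 361 ± 29.4 CPM across PHF2 t/g and 543 ± 69.8 CPM across WT (SD, n = 3 each; edgeR adjusted p = 0.00239; 0.064 without PHF2 t/g replicate 1). Dusp6, a phosphatase of ERK, had a log2 fold change of −0.51 (edgeR adjusted p = 0.00584, but 0.0984 without PHF2 t/g replicate 1 and 0.0506 without replicate 3) and the kinase gene Pim3 of −0.36 (0.0321, lost when a PHF2 t/g library was left out, whichever it was, or WT replicate 3, up to 0.268). Tac1, a tachykinin precursor that is also one of the striatum markers above, was at 49.5 ± 3.21 CPM across PHF2 t/g and 29.3 ± 2.85 CPM across WT. The effector count of 8 became 4 with scaling by total count alone (2 lower and 2 higher), 1, 4 and 2 without PHF2 t/g replicate 1, 2 and 3, 3 without WT replicate 3 and 12 without WT replicate 2. The 10 members, with 2 of 10 lower and a median of −0.16, thus had a median close to that of the other effectors.

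**Figure D4:**
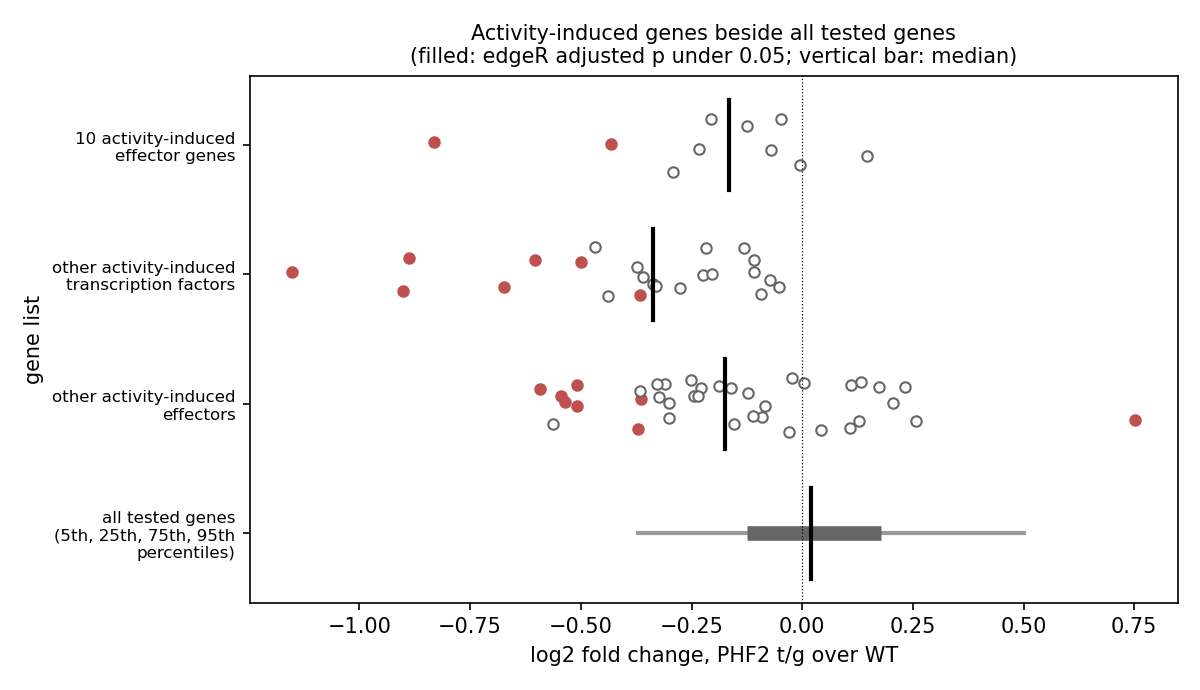
Log2 fold change of PHF2 t/g over WT for the 10 genes, 23 other activity-induced transcription factor genes and 38 other effector genes, beside the percentiles of all tested genes; filled points passed the test and vertical bars are medians. The medians are −0.16, −0.34 and −0.17, against 0.02 for all tested genes.

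Of 92 tested genes in 8 lists of partners and relatives of the 10 proteins, 1 fell and 1 rose, or 2.17%, against 2.27% of all tested genes. The lists were drawn up with earlier results of these data known, and the gene that fell is not an established partner. The likeness of these shares therefore says little about the partners. In the list of 16 drawn up around Arc and Nptx2, mostly AMPA receptor, scaffold and endocytosis genes, 15 did not pass. The gene that fell there, Stmn4, encodes a stathmin that regulates microtubules, and it is not an established partner of either protein (log2 fold change −0.61, edgeR adjusted p = 3.13e-04). The median of these 16 was 0.01, and the other pentraxin genes Nptx1 (0.13) and Nptxr (−0.14) did not pass. Of 8 partners and relatives of Npas4 none passed (median 0.15, smallest p for Epas1 with an edgeR adjusted p = 0.323, unadjusted 0.0444). Of 15 activin pathway genes none passed (median 0.10, Acvr2a 0.37, edgeR adjusted p = 0.263), nor did any of 8 prostaglandin genes (median −0.03), where Ptgds was at 273 ± 36.4 CPM across PHF2 t/g and 189 ± 32.8 CPM across WT (edgeR adjusted p = 0.0917). None of 10 relatives and substrates of Plk2 passed (median −0.04; Plk5 −0.25), none of 19 relatives of Sik1 and CREB coactivators and factors (median −0.09; Mef2c −0.23), and none of 9 BTG, TOB and deadenylase genes (median 0.03; Prmt1 −0.24). Among 7 genes of the Gadd45 family and DNA demethylation, Tet2, a dioxygenase that oxidises methylcytosine, rose to 20.3 ± 0.895 CPM in PHF2 t/g, against 13.3 ± 0.503 CPM in WT (edgeR adjusted p = 0.0289). This call was lost without any 1 library except WT replicate 2 (up to 0.178), while Gadd45a (−0.19) and Gadd45g (−0.12) did not pass.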

How the data were processed

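Each deposited file holds raw counts per gene symbol for 1 library, with no normalization by the authors, per the file headers and values. Bowtie2, edgeR and the build mm10 are named in the submitters' processing notes. Versions, the counting program, the annotation and the strand setting are not stated there. Per the labels' protocols, libraries were made from 500 ng of total RNA.

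The members and lists were chosen with earlier results of these data known. Samples were grouped by title. Genes were kept by filterByExpr, scaled by TMM and tested with edgeR 4.0.16 in R 4.3.3 (glmQLFit with robust set, then glmQLFTest, on genotype). P-values were adjusted by Benjamini-Hochberg over all 12831 genes, and 0.05 was the threshold; the procedure was tested on simulated data. Log2 CPM used a prior count of 2. Lengths for CPM per kilobase are those of the longest principal coding transcript in GENCODE M21. In each list, up to 4 genes past the test with the smallest p are named, otherwise the 1 with the smallest p; other genes named were chosen after their values were seen. Alternatives included DESeq2 1.42.0, limma-voom (limma 3.58.1), other scalings and filters, the replicate block and leaving out each library. Those for the 2 lists of other activity-induced genes were added after seeing the data. The smallest chi-square per gene between a pair of libraries was 2.82, so none was counted as a repeat.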

Additional observations from a re-analysis of the deposited data

How the results depend on the processing

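Of the 10 genes, 2 passed the test. The count became 1 with scaling by total count alone (Ier2), with limma-voom (Ier2), with a fit that was not robust (Ier2), without the rows Rn45s, Lrrc17 and Akap5 (Ier2), and with WT replicate 2 and PHF2 t/g replicate 1 both left out (Ier2). It was 1 by DESeq2 (Arc), which gave an adjusted p for only 3 of the 10 genes, not for Ier2. It ranged from 0 to 2 with 1 library left out. The count over all genes was 291, and became 162 by limma-voom, 606 without the low-count filter, 149 without the robust fit, 140 without both libraries, 547 at a threshold of 0.10, and 49 to 392 with 1 library left out (49, 106 and 116 without PHF2 t/g replicate 1, 2 and 3). The share of higher calls changed from 100 of 291 with TMM to 207 of 277 with total count alone and 50 of 270 by DESeq2. The transcription factor count of 7 became 4 with total count alone, and 4 to 10 when 1 library was dropped. The effector count of 8 became 4 with total count alone, 3 by limma-voom, 3 when not robust, and 1 to 12 with 1 library left out.

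Signs reversed only among genes that did not pass. With total count alone Nptx2 was at 0.095, Ptgs2 at 0.055 and Gadd45b at 0.029, and by limma-voom Nptx2 was at 0.17 and Ptgs2 at 0.16. Without both libraries Plk2 was at −0.058 and Gadd45b at 0.017. With 1 library left out, log2 fold changes ranged from −0.36 to 0.27 for Nptx2, −0.44 to 0.44 for Ptgs2, −0.019 to 0.23 for Plk2, −0.48 to 0.24 for Sik1 and −0.12 to 0.027 for Gadd45b. The causes of these changes were not tested.

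With the replicate number as a block, 2 of the 10 genes (Arc and Ier2), 299 of all genes, 7 transcription factors and 6 effectors passed, and Nptx2 was at 0.074. Correlations between same-numbered libraries in their deviations from the group means were −0.0142, 0.161 and 0.0983, so the numbers are not treated as pairs.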
